A study of Mus musculus with 11 samples.

Results

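The genes described here are 9 transcriptional readouts of canonical Wnt signalling, namely Lef1, Tcf7, Axin2, Nkd1, Nkd2, Rnf43, Znrf3, Sp5 and Apcdd1. They were chosen by symbol, and all 9 were listed among the 16755 genes of the deposited table. The 11 libraries were made from RNA of mouse upper molar germs at E14.5 (embryonic day 14.5). The 4 wild-type libraries came from Cilk1+/+ germs. The 4 Cilk1-/- libraries lacked exon 6 of Cilk1, which encodes ciliogenesis associated kinase 1, after germline deletion with EIIa-Cre, so the loss was not limited to epithelium or mesenchyme. The 3 compound mutant libraries (Cilk1-/-;PCS1-MRCS1△/△) carried the same Cilk1 deletion together with a homozygous deletion of 70 kb from PCS1 to MRCS1, a region that holds enhancers of Shh. No library carried the 70 kb deletion alone, so in the compound mutant its part cannot be told apart from that of Cilk1 loss except against the Cilk1-/- libraries. Embryos were littermates on a C57BL/6 background. Each biological replicate had n = 6, and the sources used here do not say whether germs or embryos were counted.

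In canonical Wnt signalling, ligand binding to Frizzled and Lrp5 or Lrp6 stops the destruction complex from degrading beta-catenin, which then enters the nucleus and acts with the TCF/LEF factors. Many genes switched on in this way encode brakes of the pathway, and their mRNA is widely read as a measure of its activity. In the tooth germ, Wnt signalling acts in the epithelium and its enamel knot as well as in the mesenchyme, and Lef1 is needed for tooth development to pass the bud stage.

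The promoters of 3 of these genes are printed because the first is the textbook readout, the second is the member that passed the test below, and the third alone held a TCF/LEF word. Each run is the 250 bases before a RefSeq start on GRCm38.p6, plus strand, in lower case with the word in capitals. Axin2 is at chr11:108920099-108920348, Nkd1 at chr8:88527383-88527632 and Sp5 at chr2:70474673-70474922. None of these bases is exonic in GENCODE vM21, and the Nkd1 start lies inside the longer GENCODE gene span.

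Axin2: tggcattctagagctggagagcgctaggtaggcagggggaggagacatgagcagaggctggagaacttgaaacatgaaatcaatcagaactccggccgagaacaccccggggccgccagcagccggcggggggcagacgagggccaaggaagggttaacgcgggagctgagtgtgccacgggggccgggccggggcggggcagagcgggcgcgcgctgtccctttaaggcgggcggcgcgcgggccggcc
Nkd1: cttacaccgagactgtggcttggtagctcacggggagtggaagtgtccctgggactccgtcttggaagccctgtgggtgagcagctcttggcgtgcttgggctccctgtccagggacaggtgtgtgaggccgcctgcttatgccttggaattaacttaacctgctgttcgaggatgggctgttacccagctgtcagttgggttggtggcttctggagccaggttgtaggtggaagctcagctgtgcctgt
Sp5: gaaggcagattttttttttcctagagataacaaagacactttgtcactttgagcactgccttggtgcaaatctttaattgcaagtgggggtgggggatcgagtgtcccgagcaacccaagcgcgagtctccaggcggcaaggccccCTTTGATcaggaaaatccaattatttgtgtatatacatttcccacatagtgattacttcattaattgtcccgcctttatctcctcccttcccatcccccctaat

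The words searched were CTTTGAT and CTTTGAA, on both strands, in windows from 250 bases before to 50 after a start. RefSeq gave 12 windows for 7 of the 9 genes, and Znrf3 and Apcdd1 had none in that table. Only the Sp5 window held a word, CTTTGAT on the gene's own strand with its first base at position −104 from the start. Of all 32851 windows of the table, 8.65% held either word. A match is a description of letters, and a window without one says nothing about binding elsewhere. The printed Axin2 run holds 24 CpG dinucleotides, against 6 in the Nkd1 run and 6 in the Sp5 run.

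The loss of Cilk1, though not the 70 kb deletion, was checked on Cilk1 itself, listed under its older symbol Ick (chr9:78109192-78172107). Its wild-type values were 3.47, 3.58, 3.45 and 3.60 on the log2 scale, the Cilk1-/- values 2.86, 2.72, 2.84 and 2.76, and the compound mutant values 2.67, 2.65 and 2.60. Every mutant library lay below every wild-type library, on average by 0.73 (SE 0.050) in Cilk1-/-. For the 70 kb deletion, Shh is given at the end of the Results, where compound mutant replicate 3 was the highest of all libraries. In the deposited values, a wild-type library and the Cilk1-/- library that bears its number are not independent. Over all genes their deviations from the genotype means had correlations of −0.74, −0.89, −0.85 and −0.79 for numbers 1 to 4, so a fit with the number as a block is given beside each result that it changes. Whether a term for the number was removed before deposit was not tested. A term shared by both libraries of a number would cancel in their difference, but its removal would narrow the spread within each genotype, on which the fit without a block rests. The labels give 2 extraction texts, here called sets: the first set holds 3 wild-type and 3 Cilk1-/- libraries, and the second holds the fourth of each with all compound mutant libraries. The replicate block thus puts compound mutant libraries 1 to 3 with same-numbered libraries of the first set, and whether these are linked was not examined. Another form of the block places all compound mutant libraries at number 4, with the other libraries of their set. Compound mutant replicate 1 and replicate 3 stood apart in several marker lists, which are given with the spread of the compound mutant. Since these are bulk samples, fewer cells of a type and less RNA per cell cannot be told apart.

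In wild type, Apcdd1 had the highest level of the 9 genes and Sp5 the lowest. The levels below are the deposited log2 values, taken as log2(FPKM + 1) and so per transcript length. The mean was 5.02 ± 0.237 (SD, n = 4) for Apcdd1, which lay above 86.5% of all listed genes, and 4.66 ± 0.119 for Lef1. Tcf7 followed at 4.41 ± 0.213, Axin2 at 4.18 ± 0.111 and Nkd1 at 3.44 ± 0.0898. The lower part of the order held Nkd2 at 3.07 ± 0.175, Rnf43 at 2.69 ± 0.114, Znrf3 at 2.66 ± 0.0919 and Sp5 at 2.32 ± 0.104, the last above 39.0% of all genes. The wild-type ranges of Lef1 and Tcf7, of Tcf7 and Axin2, and of Rnf43 and Znrf3 overlapped, so these neighbours were not separated, whereas the other 5 steps of the order had no overlap.

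**Figure D1:**
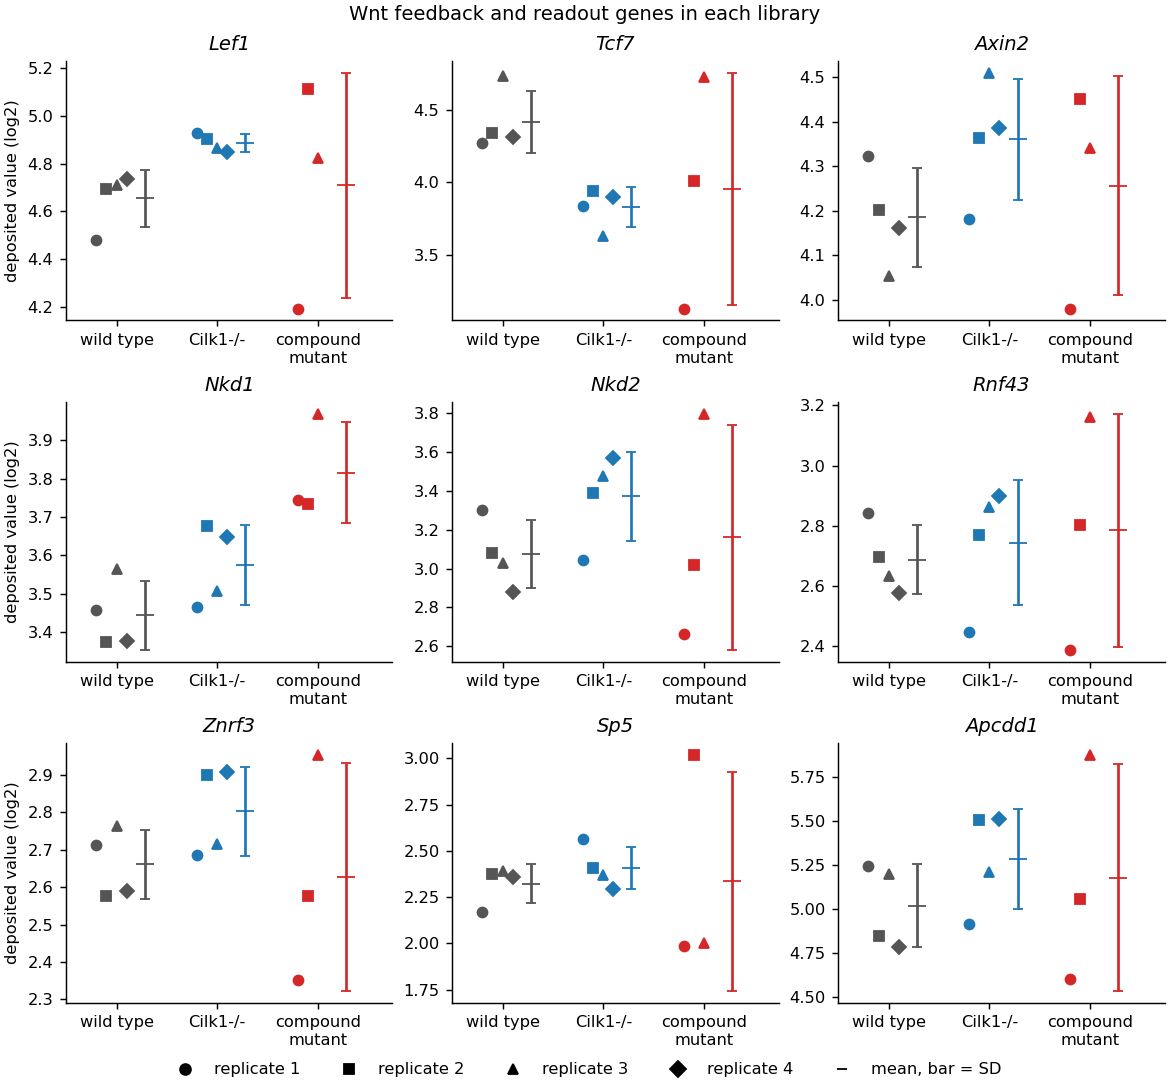
Deposited log2 value of each of the 9 genes (vertical axis, a separate scale for each gene) in the 4 wild-type, 4 Cilk1-/- and 3 compound mutant libraries. Symbols give the replicate number, and the horizontal tick with its bar gives the mean and SD. The Lef1 and Tcf7 panels have no overlap between wild type and Cilk1-/-, the 3 compound mutant values of Nkd1 lie above all others, and compound mutant replicate 1 is the lowest point of every panel except that of Nkd1.

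The first comparison asks what loss of Cilk1 alone did to these genes. None of the 9 was called in Cilk1-/- against wild type, where a call needs an adjusted p under 0.05 and a change of at least 1.5-fold in limma's test over all genes, and 0.37% of all genes were called. Without adjustment no member had p under 0.05 either, against 20.7% of all genes. The means of 8 of the 9 were higher in Cilk1-/-, with a median log2 difference of 0.14, and 51.2% of all genes had a higher mean. Tcf7 was the exception, with the lower mean and the largest difference of the 9.

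The 2 TCF/LEF factors, which bind DNA and recruit beta-catenin, had Cilk1-/- means on opposite sides of wild type, neither of them past the adjusted test. Lef1 (chr3:131110471-131224356, plus strand) had wild-type values of 4.48, 4.69, 4.71 and 4.74 and Cilk1-/- values of 4.93, 4.90, 4.87 and 4.85. All 4 Cilk1-/- libraries lay above all 4 wild-type libraries, and replicate 1 was the low one in wild type. Over all genes, 10.2% had Cilk1-/- libraries wholly above wild type and 10.7% wholly below. The Lef1 log2 fold change was 0.23 (SE 0.155, 95% interval −0.11 to 0.57), with an adjusted p of 0.437 in limma. The two-sided exact permutation test gave p = 0.0286, the smallest that 70 arrangements allow, and it treats libraries as independent, which the numbered pairs are not.

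Tcf7 (chr11:52252371-52283014, minus strand), which encodes TCF1, was at 4.27, 4.34, 4.73 and 4.31 in wild type and at 3.84, 3.94, 3.63 and 3.90 in Cilk1-/-. Every Cilk1-/- value lay below every wild-type value, and the widest gap was at number 3, where wild type was highest and Cilk1-/- lowest. The log2 fold change was −0.58 (SE 0.265, 95% interval −1.17 to 0.00) with an adjusted p of 0.244 in limma, just short of 1.5-fold in size. The exact permutation p was again 0.0286, under the same limit. With only wild type and Cilk1-/- in the fit, the adjusted p in limma was 0.0102 for Tcf7 and 0.0280 for Lef1, with the same fold changes and so no call, and 15.2% of all genes passed an adjusted p under 0.05 in that fit. A fit of all 3 genotypes with the replicate block gave 0.349 for Tcf7 and 0.490 for Lef1. The shared fit takes its spread from the compound mutant as well, and both genes varied most there. Within the first set the Cilk1-/- mean differed from wild type by 0.27 for Lef1 and −0.64 for Tcf7, and within the second, with 1 library each, by 0.11 and −0.41.

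In the compound mutant neither factor was separated from wild type. The Lef1 values were 4.19, 5.11 and 4.83, which spanned the whole range of the other 8 libraries and gave a log2 difference from wild type of 0.05 (95% interval −0.32 to 0.43, adjusted p = 0.865 in limma). The Tcf7 values were 3.13, 4.01 and 4.72, from the lowest of all 11 libraries to the level of the highest wild-type library. The Tcf7 difference was −0.46 (95% interval −1.09 to 0.18) with an adjusted p of 0.325 in limma. Single libraries set this value: without compound mutant replicate 3 it was −0.84 with an adjusted p of 0.0405 in limma, a call, and without replicate 1 it was −0.05. The fit without replicate 3 called 2.02% of all genes against wild type, and the fit with all libraries 1.25%. Against Cilk1-/-, the compound mutant differed by −0.18 in Lef1 (95% interval −0.55 to 0.19) and by 0.13 in Tcf7 (95% interval −0.51 to 0.76), and the libraries overlapped in both.

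Axin2 (chr11:108920349-108950783, plus strand), a scaffold of the destruction complex and the most used readout of the pathway, had a 95% interval that held 0 in every comparison. Its wild-type values were 4.32, 4.20, 4.05 and 4.16 and its Cilk1-/- values 4.18, 4.36, 4.51 and 4.39. The groups overlapped at replicate 1, which was the highest wild-type and the lowest Cilk1-/- library. The log2 fold change was 0.18 (SE 0.104, 95% interval −0.05 to 0.40) with an adjusted p of 0.373 in limma and an exact permutation p of 0.0857. The compound mutant was at 3.98, 4.45 and 4.34, below and above wild type. Its difference was 0.07 from wild type (95% interval −0.18 to 0.32) and −0.10 from Cilk1-/- (95% interval −0.35 to 0.14). All 3 intervals lie inside a change of 1.5-fold in either direction, which is 0.58 on this scale.

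Nkd1 (chr8:88521354-88594884, plus strand), whose product binds Dishevelled and dampens the signal, was the one member to pass the adjusted test, with a higher level in the compound mutant. The wild-type values were 3.46, 3.37, 3.57 and 3.38, those of Cilk1-/- 3.46, 3.68, 3.51 and 3.65, and those of the compound mutant 3.75, 3.73 and 3.97. The 3 compound mutant libraries lay above all 8 others, while wild type and Cilk1-/- overlapped. Against wild type the log2 fold change was 0.37 (SE 0.077, 95% interval 0.20 to 0.54), a 1.29-fold difference with an adjusted p of 0.0240 in limma. The change is under 1.5-fold and so was not called, and none of the 9 was called in this comparison in limma, against 1.25% of all genes. At an adjusted p under 0.05 with any fold, 1 of the 9 passed, against 6.58% of all genes, and without adjustment the same 1 passed, against 26.7%. Of all genes, 8.92% had compound mutant libraries wholly above wild type, and the two-sided exact permutation p of Nkd1 was 0.0286, the smallest that 35 arrangements allow. The means of 7 of the 9 genes were above wild type in the compound mutant, with a median of 0.07, where 49.4% of all genes had a higher mean. Against Cilk1-/- it was 3 of the 9, with a median of −0.10, and 51% of all genes.

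The Nkd1 test depends on the terms in the fit. With the replicate block its difference was 0.37 with an adjusted p of 0.127, a fit in which 0.167% of all genes had an adjusted p under 0.05. With the compound mutant at number 4 in the block the adjusted p was 0.614. With the set as a term the adjusted p was 0.204, and with only the 2 genotypes in the fit 0.0960. Leaving out single libraries gave differences from 0.30 to 0.41 and adjusted p values from 0.0124 to 0.0767, under 0.05 in 9 of 11 cases. The exceptions were wild-type replicate 2, at 0.0697, and wild-type replicate 4, at 0.0767. Within the second set, the compound mutant mean exceeded the single wild-type library by 0.44 and the single Cilk1-/- library by 0.17. Against all Cilk1-/- libraries the difference was 0.24 (SE 0.077, 95% interval 0.07 to 0.41), with no overlap and an adjusted p of 0.106 in limma. In that comparison, 0.543% of all genes were called, none of them a member, and 3.33% had an adjusted p under 0.05 at any fold, again with no member among them. Without adjustment Nkd1 alone of the 9 passed, against 23.2% of all genes, and 7.74% of all genes had compound mutant libraries wholly above Cilk1-/-.

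Nkd2 (chr13:73818534-73847631, minus strand), the paralogue of Nkd1, did not share this pattern. Its values were 3.30, 3.08, 3.03 and 2.88 in wild type, 3.05, 3.39, 3.48 and 3.57 in Cilk1-/- and 2.67, 3.02 and 3.79 in the compound mutant. The lowest and the highest of all 11 values were both compound mutant libraries. Cilk1-/- exceeded wild type by 0.30 (SE 0.211, 95% interval −0.17 to 0.76, adjusted p = 0.464 in limma). The compound mutant differed from wild type by 0.09 (95% interval −0.42 to 0.59) and from Cilk1-/- by −0.21 (95% interval −0.71 to 0.29).

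Rnf43 (chr11:87662722-87735539, plus strand) and Znrf3 (chr11:5276324-5444847, minus strand) encode the membrane ubiquitin ligases that remove Frizzled receptors from the cell surface. With all libraries in the fit, the 95% interval of each held 0 in every comparison. The Rnf43 values were 2.84, 2.70, 2.63 and 2.58 in wild type, 2.45, 2.77, 2.86 and 2.90 in Cilk1-/- and 2.39, 2.80 and 3.16 in the compound mutant. Its difference from wild type was 0.06 in Cilk1-/- (95% interval −0.28 to 0.40) and 0.10 in the compound mutant (95% interval −0.27 to 0.46). The genotypes overlapped. With the compound mutant at number 4 in the replicate block, its interval widened to −0.50 to 0.65.

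For Znrf3 the wild-type values were 2.71, 2.58, 2.76 and 2.59, the Cilk1-/- values 2.69, 2.90, 2.71 and 2.91, and the compound mutant values 2.35, 2.58 and 2.95. The difference from wild type was 0.14 in Cilk1-/- (95% interval −0.11 to 0.40, adjusted p = 0.528 in limma) and −0.03 in the compound mutant (95% interval −0.31 to 0.24). Against Cilk1-/- the compound mutant differed by −0.18 (95% interval −0.45 to 0.10). Without compound mutant replicate 3 that value was −0.34 with an adjusted p of 0.0470 in limma, under 1.5-fold and so no call. In that fit 2.15% of all genes were called, against 0.543% with all libraries.

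Sp5 (chr2:70474923-70477729, plus strand), a transcription factor that is a direct target of beta-catenin in many tissues, was the lowest member, and a single library set its spread. Its values were 2.17, 2.38, 2.39 and 2.36 in wild type, 2.57, 2.41, 2.37 and 2.29 in Cilk1-/- and 1.99, 3.02 and 2.0 in the compound mutant. Compound mutant replicate 2 was the highest of all 11 libraries and the other 2 compound mutant libraries were the lowest. The mean difference from wild type was accordingly near 0, at 0.01 (95% interval −0.46 to 0.48), and in Cilk1-/- it was 0.08 (95% interval −0.35 to 0.52). Without compound mutant replicate 2, the compound mutant was at −0.33 against wild type (adjusted p = 0.0303 in limma) and at −0.41 against Cilk1-/- (adjusted p = 0.0238 in limma). Both are under 1.5-fold and so no call. Leaving out that library raised the share of all genes called from 1.25% to 4% against wild type and from 0.543% to 2.15% against Cilk1-/-.

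Apcdd1 (chr18:62922231-62961179, plus strand) encodes a membrane inhibitor that binds Wnt ligands and Lrp5. The wild-type values were 5.24, 4.85, 5.20 and 4.78, those of Cilk1-/- 4.91, 5.51, 5.21 and 5.51, and those of the compound mutant 4.60, 5.06 and 5.88. The groups overlapped, and again the compound mutant held both the lowest and the highest value. Cilk1-/- exceeded wild type by 0.27 (SE 0.245, 95% interval −0.27 to 0.81, adjusted p = 0.584 in limma) and the compound mutant by 0.16 (95% interval −0.42 to 0.75). These intervals are wide enough to hold a 1.5-fold rise, so such a rise was neither shown nor excluded here.

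**Figure D2:**
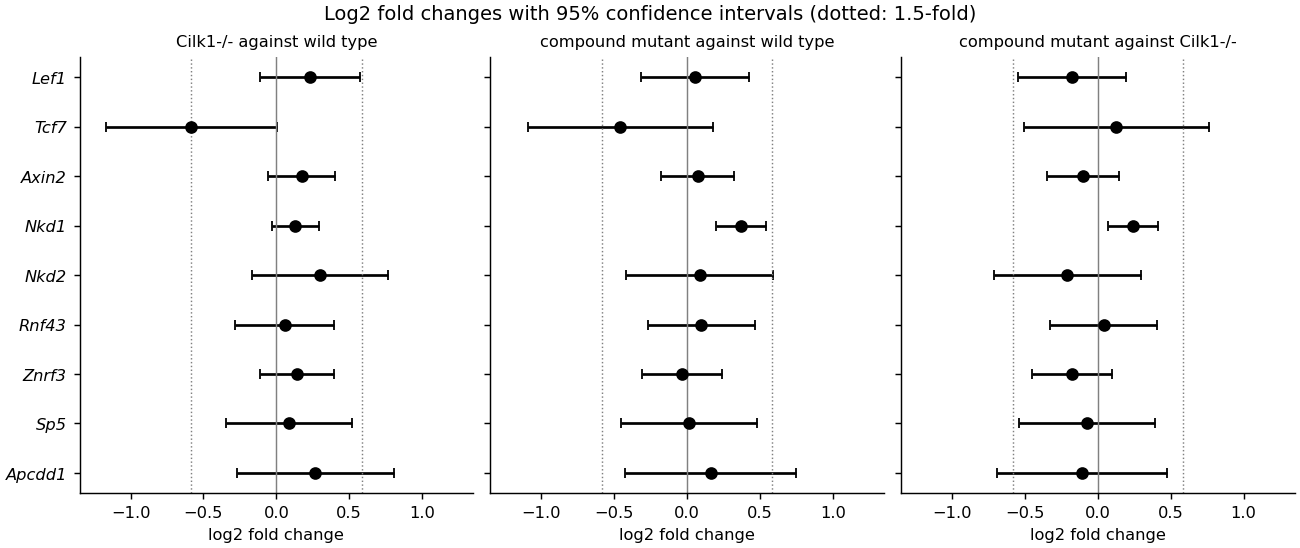
Log2 fold change (horizontal axis) of each of the 9 genes in the 3 comparisons, with the 95% interval of the limma fit over all genes as the bar. Solid vertical lines mark no change and dotted lines 1.5-fold. The Nkd1 interval lies wholly above 0 in both compound mutant comparisons, at 0.37 and 0.24, while the intervals of the other 8 genes reach 0, that of Tcf7 in Cilk1-/- only with its upper end.

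Since same-numbered wild-type and Cilk1-/- libraries are linked, the difference was also taken within each number. Lef1 was higher in Cilk1-/- for all 4 numbers, by 0.45, 0.21, 0.15 and 0.11 on the log2 scale. Tcf7 was lower for all 4, by −0.43, −0.40, −1.10 and −0.41. Over all genes, 11.4% were higher for every number and 11.4% lower for every number. No other member had the same sign in all 4: Axin2 was higher for 3, at −0.14, 0.16, 0.46 and 0.22, and Apcdd1 for 3, at −0.33, 0.66, 0.02 and 0.73. Number 1 had the lowest difference of the 4 for Axin2, Nkd2 (−0.26), Rnf43 (−0.40) and Apcdd1, and the highest for Lef1 and Sp5 (0.40). With the replicate block, Tcf7 kept its fold change of −0.58 with an unadjusted p of 0.0441 and an adjusted p of 0.349 in limma.

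**Figure D3:**
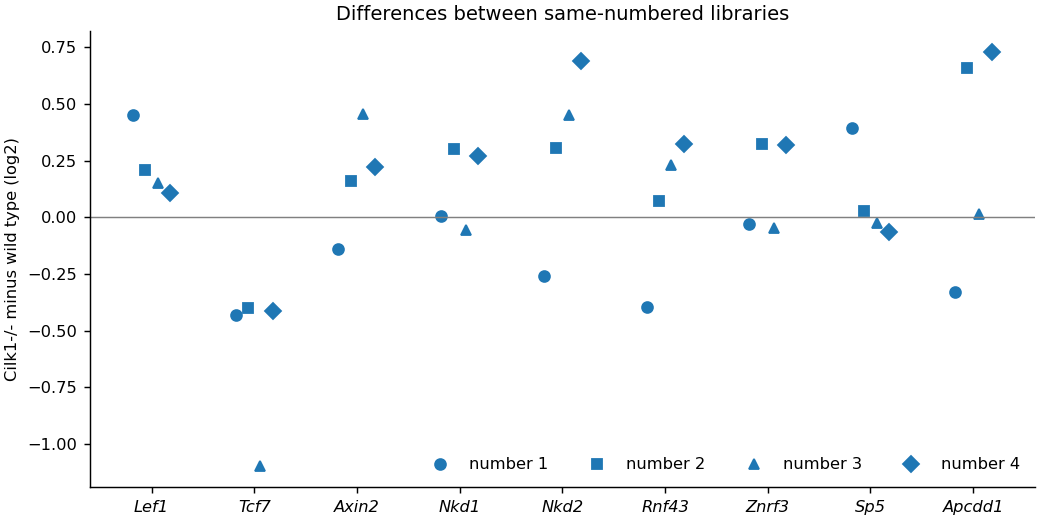
Difference between the Cilk1-/- and the wild-type library of the same number (vertical axis, log2) for each of the 9 genes, with 1 symbol per number. All 4 symbols lie above 0 for Lef1, between 0.11 and 0.45, and below 0 for Tcf7, between −1.10 and −0.40, and the other 7 genes have symbols on both sides.

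The compound mutant libraries disagreed among themselves on 8 of the 9 genes. The median SD of the 9 genes was 0.471 in the compound mutant, 0.135 in Cilk1-/- and 0.114 in wild type, whereas that of the 13028 genes with a mean of at least 1 was 0.133, 0.0729 and 0.0752. Within the compound mutant, the SD was 0.797 for Tcf7, 0.645 for Apcdd1, 0.591 for Sp5 and 0.577 for Nkd2, and only 0.133 for Nkd1. Compound mutant replicate 1 was the lowest of all 11 libraries for 8 of the 9 genes, the exception being Nkd1, and for 17.6% of all genes. Replicate 3 was the highest of its genotype for 6 of the 9 and replicate 2 for the other 3, against 30.0% and 33.8% of all genes. Relative to the wild-type mean, the median of the 9 genes was −0.34 in replicate 1, 0.12 in replicate 2 and 0.31 in replicate 3.

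Markers of several cell types moved with these libraries. The 10 dental epithelium markers, back on the linear scale, summed to 620 in replicate 1, 774 in replicate 2 and 1165 in replicate 3, against 875 to 1100.4 in wild type and 934 to 1142 in Cilk1-/-. The 11 enamel knot markers summed to 76.3, 75.5 and 189 in these 3 libraries, against 61.0 to 95.8 in wild type and 77.3 to 109 in Cilk1-/-. Of these 11, Cdkn1a at 1.11 (adjusted p = 0.0176 in limma) and Bmp2 at 0.95 (adjusted p = 0.0302) were called higher in the compound mutant than in wild type, and also in 10 and 7 of the 11 fits with 1 library left out. The Bmp2 value ranged from 0.61, without compound mutant replicate 3, to 1.13 in those fits. Of the same 11 markers, 7 had a higher and 4 a lower mean in the compound mutant than in wild type, with a median log2 fold change of 0.13. Of all genes, 1.25% were called in this comparison. By the sums, replicate 1 had the lowest epithelial sum of all 11 libraries and replicate 3 the highest epithelial and enamel knot sums. The 10 neuron markers summed to 213, 43.8 and 80.6, against 27.8 to 35.2 in wild type and 40.7 to 45.5 in Cilk1-/-, and the 10 bone and cartilage markers to 576, 357 and 209, against 163 to 259 in wild type and 179 to 223 in Cilk1-/-. Of the bone and cartilage markers, 6 had a higher and 4 a lower mean in the compound mutant than in wild type, with a median log2 fold change of 0.34. The neuron genes Tubb3 (adjusted p = 0.0268 in limma; 1.03 to 1.95 with 1 library left out) and Isl1 at 0.95 (adjusted p = 0.0190) were called higher in the compound mutant against wild type, and also in 8 and 10 of the 11 fits with 1 library left out. The replicate block left none of these 4 calls, at 0.0971 to 0.135. Other called markers were Ngfr of the Schwann cell list, which was below wild type in Cilk1-/-, and the muscle genes Acta1, Actc1 and Myh3, lower in the compound mutant than in Cilk1-/-, and the block left none of those either. With 1 library left out, Ngfr was called in 5 of the 11 fits, Acta1 in 2, Actc1 in 10 and Myh3 in 5. The 10 dental mesenchyme markers summed to 1108, 1674 and 1545, against 1385 to 1522 in wild type and 1380 to 1621 in Cilk1-/-. While these sums overlap, 8 of the 10 had a lower mean in the compound mutant than in wild type, with a median log2 fold change of −0.39. Skeletal muscle markers, 10 genes, summed to 9.03 to 10.5 in the compound mutant, 11.3 to 36.5 in wild type and 23.8 to 64.4 in Cilk1-/-. Erythroid markers, 9 genes, were at 1060 in replicate 3 and at 2890 to 4181 in the other 10 libraries. The 10 Schwann cell and glia markers summed to 45.8 to 68.1 in the compound mutant, 46.8 to 52.5 in wild type and 42.5 to 44.5 in Cilk1-/-, where all 4 libraries lay below wild type, while the neuron sums of Cilk1-/- lay above it. Gene by gene this list did not fall: 8 of the 10 glial genes had a higher mean in Cilk1-/- than in wild type and 2 a lower one. Their median log2 fold change was 0.14. The 9 macrophage markers summed to 33.9 to 49.8 in the compound mutant, 41.8 to 52.1 in wild type and 43.4 to 50.5 in Cilk1-/-. The 10 endothelium markers summed to 140 to 154, 134 to 161 and 129 to 149 in the same order. No listed marker was at 0 in every library of a group. The part of these differences in the values of the 9 genes was not tested.

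**Figure D4:**
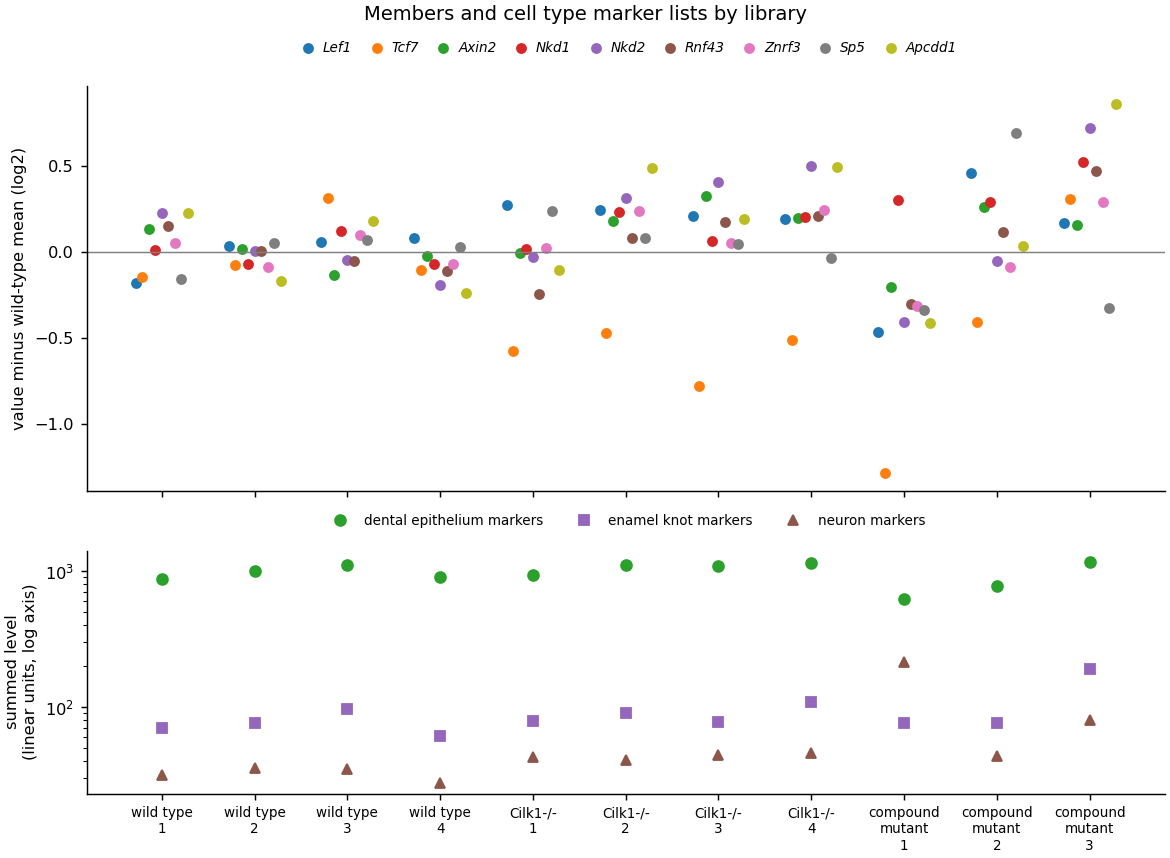
Upper panel: deviation of each of the 9 genes from its wild-type mean (vertical axis, log2) in each of the 11 libraries. Lower panel: summed linear level (logarithmic axis) of the dental epithelium, enamel knot and neuron marker lists in the same libraries. In compound mutant replicate 1, 8 of the 9 genes lie below 0, the epithelial sum is at its lowest, 620, and the neuron sum at its highest, 213.

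Likeness of pattern was described by Pearson's r over the 11 libraries, for Axin2 and Lef1 against the 13028 genes with a mean of at least 1. The 3 genes most like Axin2 were Gm13139 (r = 0.98), Nlgn2 (r = 0.93) and Tmem150a (r = 0.92). For Lef1 they were Smim15 (r = 0.95), Katnbl1 (r = 0.95) and Fam83f (r = 0.94). Among the 9 genes, Axin2 was most like Rnf43 (r = 0.74) and Nkd2 (r = 0.71) and least like Tcf7 (r = 0.02), and Lef1 was most like Sp5 (r = 0.74). These values share libraries and the wide compound mutant spread, and each gene list was the top of a long search, so they are descriptions only.

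The other genes of the pathway were taken from 7 lists by role, which held 105 listed genes. In Cilk1-/- none of the 105 was called in limma, and Dact1, which encodes a Dishevelled-binding protein, was the one to pass an adjusted p under 0.05 at any fold, for which 2.44% of all genes passed. Dact1 was at 4.68 ± 0.109 in wild type and 4.19 ± 0.200 in Cilk1-/- (SD, n = 4 each), a log2 fold change of −0.49 (SE 0.104, adjusted p = 0.0411 in limma). The replicate block raised this adjusted p to 0.168. With only wild type and Cilk1-/- in the fit, 3 of the 105 were called, against 0.776% of all genes, namely Sostdc1 at −0.74 (adjusted p = 0.0030 in limma), Dkk1 at −0.69 (adjusted p = 0.0212) and the R-spondin receptor gene Lgr5 at 0.63 (adjusted p = 0.0155). Sostdc1 was also called in Cilk1-/- with the filter on low values and without any 1 of the compound mutant libraries, Dkk1 without compound mutant replicate 2 (adjusted p = 0.0330) or wild type replicate 1, Lgr5 without compound mutant replicate 3 (adjusted p = 0.0452), and Dact1 without Cilk1-/- replicate 1. None of these fits holds the numbers as a block. A fit of all 3 genotypes with the replicate block called 0 of the 105 in Cilk1-/-, with adjusted p values in limma of 0.140 for Sostdc1, 0.260 for Dkk1 and 0.348 for Lgr5. In the compound mutant against wild type, 5 of the 105 were called, 1 higher and 4 lower, and 10 had an adjusted p under 0.05, 3 higher and 7 lower. That is 4.76% called and 9.52% with an adjusted p under 0.05, against 1.25% and 6.58% of all genes. The lists were chosen with earlier results of these data known, so these shares are descriptions, and an excess was not tested.

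The 4 lower genes were all among the 15 secreted Wnt inhibitors. As a list these did not fall: 8 of the 15 had a higher mean in the compound mutant than in wild type and 7 a lower one. Their median log2 fold change was 0.0049. Sostdc1, which binds Lrp5 and Lrp6 and also BMPs and is made in dental epithelium and mesenchyme, had wild-type values of 7.36, 7.29, 7.34 and 7.35. It was at 6.29, 6.77, 6.67 and 6.66 in Cilk1-/- and at 5.46, 6.36 and 6.24 in the compound mutant. All mutant libraries lay below all wild-type libraries, with a log2 fold change of −1.31 in the compound mutant (SE 0.187, adjusted p = 0.0062 in limma) and −0.74 in Cilk1-/- (SE 0.173, adjusted p = 0.0545 in limma). Of all 16755 genes, 1516 had compound mutant libraries wholly below wild type and 1792 had Cilk1-/- libraries wholly below it. Dkk2, whose product binds Lrp6, was at 3.36, 3.60 and 3.02 in the compound mutant, against 4.16, 3.92, 3.86 and 3.97 in wild type and 3.97, 4.31, 4.38 and 4.19 in Cilk1-/-. It fell in the compound mutant against wild type by 0.65 (SE 0.137, adjusted p = 0.0244 in limma) and against Cilk1-/- by 0.89 (SE 0.137, adjusted p = 0.0125), the only one of the 105 called in that comparison with all 11 libraries. Frzb, a secreted Frizzled-related protein, differed from wild type by −0.91 (SE 0.223, adjusted p = 0.0406 in limma) and Sost, an Lrp-binding inhibitor of bone, by −0.67 (SE 0.157, adjusted p = 0.0357 in limma) from a low wild-type level of 0.93. The Sost value depends on the scale: with a pseudocount of 0.1 it was −1.91 with an adjusted p of 0.0551, and the gene is below the filter on low values.

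The 1 higher gene was Dact2, a Dishevelled-binding protein like Dact1. It was at 2.44, 2.66, 2.53 and 2.43 in wild type, 2.95, 2.86, 3.10 and 3.10 in Cilk1-/- and 3.21, 2.92 and 3.64 in the compound mutant. All mutant libraries lay above all wild-type libraries, with log2 fold changes of 0.74 (SE 0.141, adjusted p = 0.0184 in limma) in the compound mutant and 0.49 (SE 0.131, adjusted p = 0.0763) in Cilk1-/-. Over all genes, 8.92% had compound mutant libraries wholly above wild type and 10.2% had Cilk1-/- libraries wholly above it. With the replicate block, 1 of these 5 calls was left, Sostdc1 at an adjusted p of 0.0341, and the others were between 0.0925 for Dact2 and 0.157 for Sost. None of the 5 was called with the set as a term, with only the 2 genotypes, or with the compound mutant at number 4 in the block, where the adjusted p of Sostdc1 was 0.0882, 0.0576 and 0.435. The block also took the call of Dkk2 against Cilk1-/-, at 0.138, as did the set as a term (0.176), the fit with only the 2 genotypes (0.0990) and the compound mutant at number 4 in the block (0.809). With 1 library left out in turn, Sostdc1 was called in 11 of 11 cases, Dact2 in 9, Dkk2 against wild type in 7, Sost in 6 and Frzb in 1. Without compound mutant replicate 1, the pathway genes called against wild type were Dact2, Dkk2, Lgr4 and Sostdc1, with 1.02% of all genes called, and without replicate 3 they were Fzd9 and Sostdc1, with 2.02%. Without replicate 2, when 4% of all genes were called, 11 of the 105 were, 4 higher (Ccnd1, Dact2, Sfrp1 and Sox9) and 7 lower (Dkk2, Frzb, Jag1, Msx1, Sost, Sostdc1 and Wnt2). Against Cilk1-/- the count also rested on single libraries. It was 8 without compound mutant replicate 2, 4 higher (Dkk1, Sfrp1, Sox9 and Wnt11) and 4 lower (Dkk2, Frzb, Msx1 and Sostdc1), and 7 without replicate 3, with Fzd9 higher and Cd44, Dkk2, Ror1, Shh, Tnfrsf19 and Wnt7a lower. In both of these fits 2.15% of all genes were called. Without any 1 of the other 9 libraries it was Dkk2 alone.

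By role, the other lists had few or no changes and medians near 0, and their shares past an adjusted p of 0.05 are to be read against the 6.58% of all genes. Of 16 Wnt ligands, 1 passed an adjusted p under 0.05 in the compound mutant, Wnt5b at 0.33 above wild type (SE 0.068, adjusted p = 0.0228 in limma) and 0.35 above Cilk1-/- (SE 0.068, adjusted p = 0.0305). Of 16 Wnt receptors and co-receptors, 1 passed, Fzd10 at −0.41 against wild type (SE 0.087, adjusted p = 0.0252 in limma). With the replicate block both were past 0.05, at 0.150 and 0.127. Of the 20 other reported targets of beta-catenin, 2 fell at an adjusted p under 0.05, the Notch ligand Jag1 at −0.49 (adjusted p = 0.0366 in limma) and the T-box gene T, or brachyury, at −0.36 (adjusted p = 0.0169). Of the 17 genes of the destruction complex and Dishevelled, Csnk1e, which encodes casein kinase 1 epsilon, also rose, by 0.21 (adjusted p = 0.0159 in limma). In the fit with the replicate block these 3 had adjusted p values of 0.154 for Jag1, 0.125 for T and 0.149 for Csnk1e, all past 0.05, and T, a gene of low level, was called at −1.07 with a pseudocount of 0.1 (adjusted p = 0.0177). The cyclin D1 gene Ccnd1, another of the 20 targets, was at 0.59 with an adjusted p of 0.0519 in limma. It was called at 0.60 with the pseudocount of 0.1 (adjusted p = 0.0474) and at 0.63 with quantile normalization (adjusted p = 0.0490), and had an adjusted p of 0.180 with the replicate block. None of the 7 R-spondins and their receptors and none of the 14 nuclear partners of beta-catenin passed in either mutant against wild type. The medians of the 7 lists lay between −0.07 and 0.09 in Cilk1-/- and between −0.10 and 0.10 in the compound mutant against wild type, where the medians of all genes were 0.0032 and −0.0016.

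**Figure D5:**
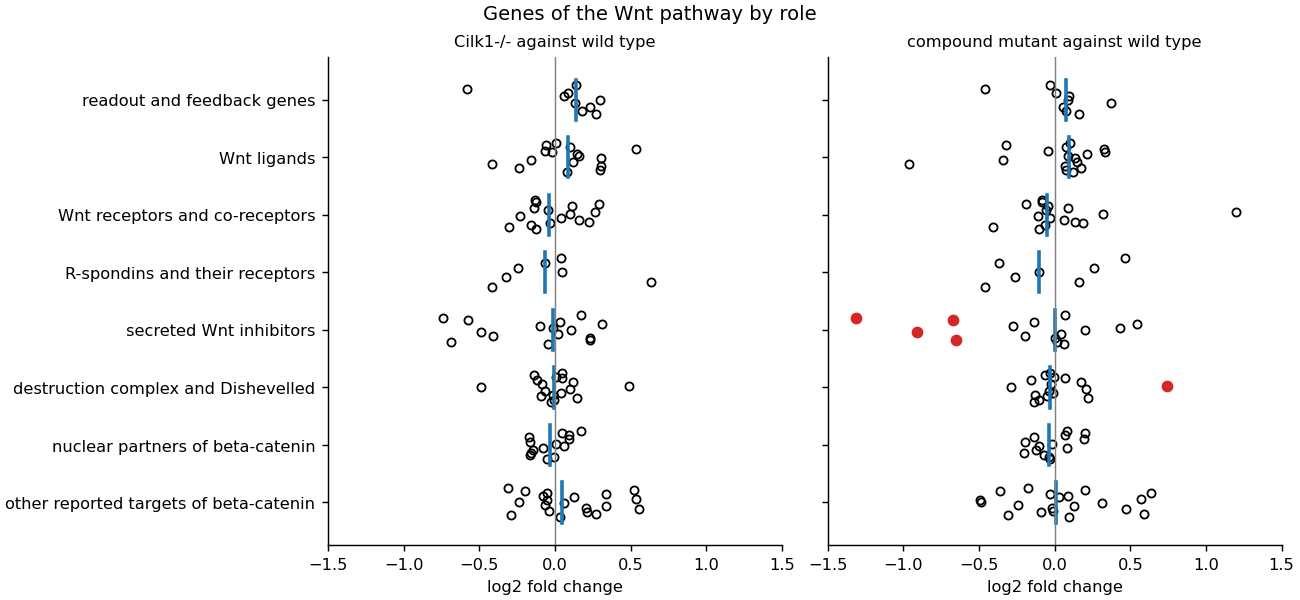
Log2 fold change against wild type (horizontal axis) of the 9 readout and feedback genes and of 105 other Wnt pathway genes by role, in Cilk1-/- (left) and the compound mutant (right). Each circle is a gene, filled red where called, and each blue bar is the median of its row. No circle is filled in Cilk1-/-, and 5 are filled in the compound mutant, 4 of them secreted Wnt inhibitors below 0.

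For comparison with the hedgehog loop that the study follows, Ptch1, the hedgehog receptor and a direct target of its signal, was called lower in both mutants. It was at 6.07 ± 0.119 in wild type (SD, n = 4), 5.18 ± 0.0694 in Cilk1-/- (n = 4) and 4.41 ± 0.564 in the compound mutant (n = 3). The differences from wild type were −0.89 (SE 0.184, adjusted p = 0.0374 in limma) and −1.66 (SE 0.198, adjusted p = 0.0028 in limma). With the replicate block the adjusted p values were 0.149 and 0.0341, so only the call in the compound mutant was left. That call was lost with the compound mutant at number 4 in the block. The ligand Shh did not pass the test in either mutant. It varied from 3.66 to 6.51 within the compound mutant, against 4.18 to 5.18 in wild type and 4.79 to 5.66 in Cilk1-/-. Compound mutant replicate 3 lay above every wild-type and Cilk1-/- library, although the deleted 70 kb hold enhancers of Shh. The reason was not tested. Replicate 1 was lowest and replicate 3 highest, the same order as for Tcf7, Nkd2, Rnf43, Znrf3 and Apcdd1. Lef1, Axin2, Nkd1 and Sp5 had another order, and the share of all genes with the order of Shh was not counted.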

How the data were processed

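RNA-seq values of 11 libraries were analysed (4 wild type, 4 Cilk1-/-, 3 compound mutant). The authors mapped reads to mm10 with HISAT2 2.0.5, counted them with featureCounts 1.5.0-p3 and calculated FPKM. The deposited values are on a log2 scale, probably log2(FPKM + 1), though 257 genes have a value below 0. Counts were not used here, so the depth is unknown and each error comes from differences among libraries, which may share litters. Genotypes were compared with limma 3.58.1 in R 4.3.3 (lmFit, eBayes with trend and robust) in 1 fit over the 3 genotypes without covariates, adjusted by Benjamini-Hochberg over all 16755 genes. A call needed an adjusted p under 0.05 and a change of at least 1.5-fold. The script was tested on simulated data.

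The 9 genes and all lists were chosen with earlier results of these data known. Besides the 9, the genes eligible to be named were those called and the 2 highest and 2 lowest of each pathway list, the 3 most like Axin2 and Lef1, and Cilk1, Shh, Ptch1 and Sostdc1. Genes that passed only the adjusted p (Csnk1e, T, Jag1 and the like) were named after their values were seen. Gene positions are from GENCODE vM21 (GRCm38). Alternatives were the replicate block, the set as a term, only 2 genotypes, a pseudocount of 0.1, a filter on low values, 2 other scalings, another variance model, unadjusted p and each library left out. The block with the compound mutant at number 4, and the refits of pathway genes, were added after the data were seen.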

Additional observations from a re-analysis of the deposited data

Results flagged for a closer look

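Of 18 groups of 4 libraries tested with Dixon's ratio (the gap of an extreme library to its neighbour over the whole range, against its 95% critical value), 3 held a library far from the others, all in wild type. Chance marks about 1 group in 20. The ratio was 0.833 for Lef1, where replicate 1 was low at 4.48 against 4.69 to 4.74. It was 0.850 for Tcf7, where replicate 3 was high at 4.73 against 4.27 to 4.34. It was 0.839 for Sp5, where replicate 1 was low at 2.17 against 2.36 to 2.39. The Lef1 and Tcf7 libraries concerned are those of the widest same-number differences, 0.45 and −1.10.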

How the results depend on the processing

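The 27 log2 fold changes of the 9 genes were recomputed under 20 alternatives, and 23 of the 540 values changed sign, in 14 fold changes. Only 333 of the 540 could differ from the reported value, since some alternatives leave a mean difference as it is. For Cilk1-/- against wild type 11 of the 20 could, and all 9 directions were kept in those. The causes were not tested. For Sp5 in the compound mutant against wild type, the value was −0.0028 with the replicate block, −0.0054 with a pseudocount of 0.1 and −0.064 after quantile normalization.

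With 1 library left out in turn, the compound mutant against wild type ranged from −0.15 to 0.31 for Lef1, −0.025 to 0.21 for Axin2, −0.23 to 0.33 for Nkd2, −0.091 to 0.30 for Rnf43, −0.20 to 0.10 for Znrf3, −0.33 to 0.19 for Sp5 and −0.19 to 0.45 for Apcdd1. Against Cilk1-/- it ranged from −0.38 to 0.082 for Lef1, −0.26 to 0.54 for Tcf7, −0.20 to 0.035 for Axin2, −0.53 to 0.036 for Nkd2, −0.15 to 0.24 for Rnf43, −0.41 to 0.10 for Sp5 and −0.46 to 0.18 for Apcdd1. Members called in the compound mutant against wild type ranged from 0 to 1, the 1 being Tcf7 without compound mutant replicate 3.

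Counts over all genes moved more. In Cilk1-/- against wild type, 62 genes were called, 4 with the replicate block under either placement of the compound mutant, 37 with the set as a term, 130 with only 2 genotypes, 123 with a pseudocount of 0.1, 126 at an unadjusted p and 15 to 95 with a library left out. In the compound mutant against wild type these were 209, 26 with the replicate block (0 with the compound mutant at number 4), 18, 34, 547, 499 and 80 to 671. Against Cilk1-/- they were 91, 2 with the block (0 at number 4), 1, 1, 294, 350 and 36 to 360. For the members, the replicate block took Nkd1 in the compound mutant past an adjusted p of 0.05, to 0.127, or 0.614 with the compound mutant at number 4, and moved no other fold change of the 9 genes across that threshold.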
